A study of Rattus norvegicus with 4 samples.

Results

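Fibrillar collagens and matrix glycoproteins of fibroblasts were followed as a set of 8 genes: Col1a1, Col1a2, Col3a1, Col5a2, Fn1, Sparc, Dcn and Lox. They were taken by their rat Ensembl gene identifiers, as listed for this set, from the 20174 gene probes of a single-colour oligonucleotide array, and all 8 were found, with 1 probe each. The gene names come from that list, because no table used here pairs these identifiers with symbols. The RNA came from Rat-1·RasValA1, a stable line of rat embryonic fibroblasts that makes HrasG12V, an activated form of Ras, from a promoter that IPTG switches on. All cultures carried this allele and spent 24 h in DMEM with 0.1% bovine serum albumin and without serum. Group 1 received no addition, group 2 received 5 mM IPTG, group 3 received 3 µM ZnCl2, and group 4 received both. Each condition was measured on 1 array. A single pair of arrays was therefore compared without replicates and without a p-value. Every culture carried the inducible allele and the probe for Hras could not be named, so IPTG itself and the induced Ras protein cannot be told apart here.

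Fibroblasts secrete procollagen chains that fold into triple helices in the endoplasmic reticulum, are trimmed outside the cell and assemble into fibrils. Fibronectin fibrils form beside them, SPARC and decorin bind collagen and influence fibril assembly, and lysyl oxidase cross-links the finished fibrils. Loss of type I collagen and fibronectin from the cell layer is a classical feature of fibroblasts transformed by oncogenes, which makes these genes a natural readout in cells with inducible Ras.

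Signal is given as a normalized signal, the spot intensity after correction against the mean of the array's blank spots, with 50 units added and all arrays brought to the same distribution. A probe counted as detected where its spot exceeded the blank mean plus 2 SD. Blank means were 66.0 in untreated cells and after IPTG, 66.5 after zinc and 69.8 after both, and the array of cells given both stood somewhat apart from the rest. There 24.0% of spots carrying no probe exceeded the detection limit, against 16.6% to 17.9% on the others. Over 24 repeat spots of each of 2 positive controls, the SD of the log2 signal within an array was 0.07 to 0.22. The second of these controls was itself brighter with IPTG, with median intensities of 8399 and 8762 without it and 13028 and 11760 with it; its part in the results was not tested. Of the 8 matrix genes, 7 were detected on all 4 arrays. The exception was Dcn.

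IPTG was followed by lower signal of both type I collagen chains, of type III collagen and of Sparc, in cells without and with zinc alike. In RNA from whole cultures, fewer cells expressing a gene and less of its RNA per cell cannot be told apart. Col3a1, Col1a1, Col1a2 and Sparc were at least 2-fold lower with IPTG in each of the 2 pairs of arrays, which share no array. That is 4 of the 7 genes entered, since Dcn was not, where 1.33% of the 13972 probes entered were that much lower in both pairs. The count was 2 with the local background around each spot, where Col1a2 and Sparc missed the limit, and 3 in the authors' deposited table, where Col1a2 did. Over all probes, 259 were that much lower in both pairs with the local background and 353 in the authors' table. With the blank spots 186 probes were. None of the 7 was at least 2-fold higher with IPTG in either pair, where 3.43% of probes were in the zinc-free pair and 2.12% in the zinc pair. In single pairs, the same 4 genes passed the limit without zinc, where 3.84% of all probes did, and with zinc, where 2.23% did. Over the 7 genes entered, the median log2 difference was -1.15 without zinc and -1.17 with zinc, beside 0.01 and 0.00 over all probes.

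An additive limma model of IPTG and zinc used both pairs together. It leaves 1 residual degree of freedom per probe, shares the spread between probes of like brightness and takes any interaction as error. Each SE given below is the moderated SE of this fit, which draws on other probes. It is not the SE of a gene's own 2 pairs. Col3a1, Col1a1, Col1a2 and Sparc passed this test as lower with IPTG, at limma adjusted p-values of 0.00028, 0.00086, 0.0030 and 0.0147. By the same test 5.83% of all probes were lower and 4.99% higher. With a variance prior that ignores brightness, limma called none of the 13972 probes, 2950 had an unadjusted p under 0.05, and the adjusted p of these 4 genes lay between 0.119 and 0.126. Nothing in the labels describes how often cultures were repeated. The p-values of the main fit rest on 1 residual degree of freedom from the 2 pairs and on 7.63 prior degrees of freedom from the other probes. They do not measure the spread between repeated cultures.

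**Figure D1:**
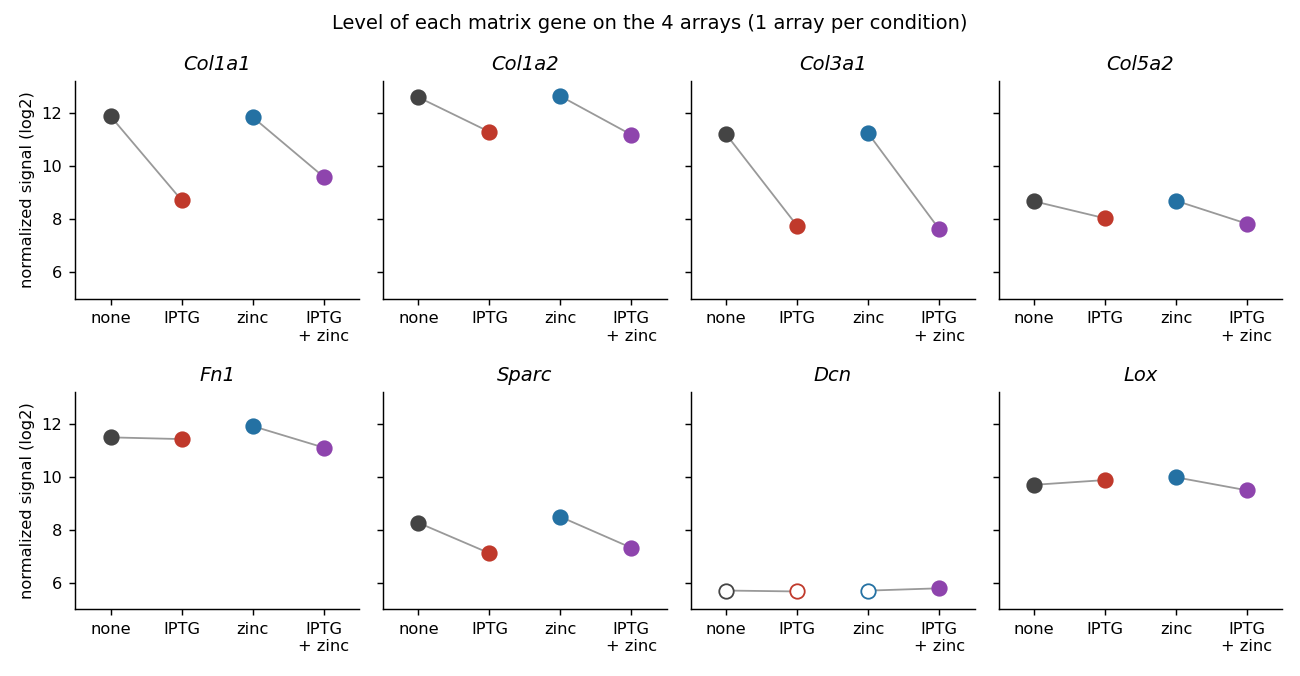
Normalized signal of each gene (log2, vertical axis) on the 4 arrays, 1 point per array and no error bars because each condition had 1 array; lines join the arrays without and with IPTG. Filled points were above the detection limit and open points were not. Col1a1, Col1a2, Col3a1 and Sparc lie lower on both IPTG arrays, while Dcn stays at the level of blank spots.

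**Figure D2:**
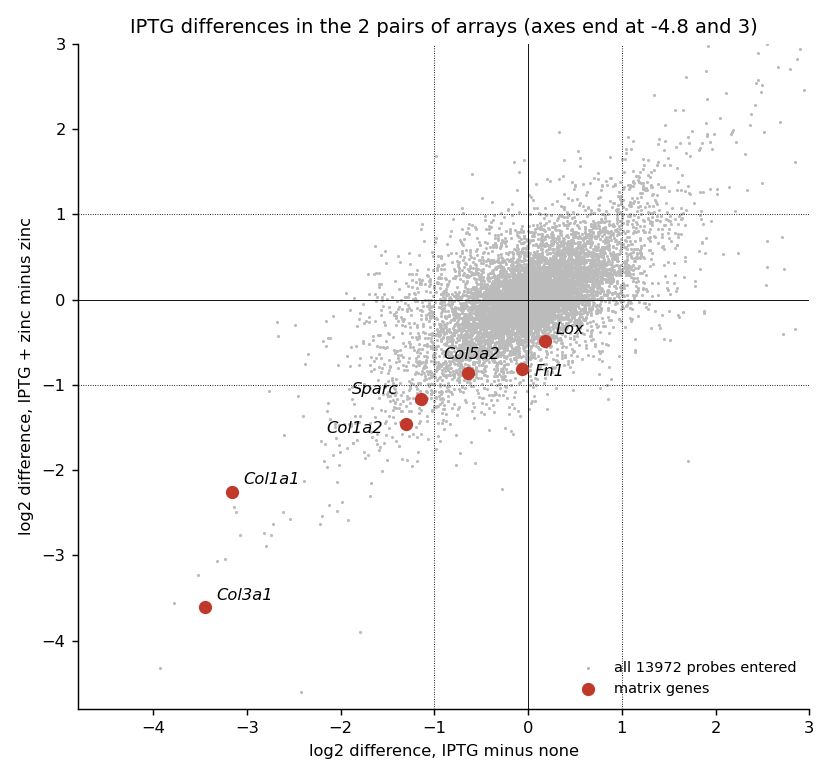
Log2 difference with IPTG in the pair without zinc (horizontal) and in the pair with zinc (vertical), with 13972 probes in grey and the 7 matrix genes entered in red; dotted lines mark 2-fold, and 15 probes lie beyond the axes. Col3a1 and Col1a1 sit at the far lower left of all probes, Col1a2 and Sparc just past 2-fold in both pairs, and Fn1 and Lox near 0 on the horizontal axis.

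Type III collagen gave the largest difference of the set. Col3a1 (ENSRNOG00000003357) encodes the chain of a homotrimer that forms fibrils together with type I collagen in extensible tissues. Its normalized signal was 2337 in untreated cells, 214 after IPTG, 2398 after zinc and 197 after both. The 2 arrays with IPTG were low and the 2 without were high, and the 2 arrays of each kind lay close together. How many of all probes separate by IPTG in this way was not counted, here or for the genes below. The fall was 10.9-fold without zinc and 12.2-fold with zinc. On the log2 scale the 2 pairs averaged -3.53 ± 0.23 (moderated SE). Only 2 of the 13972 probes had a lower average, which makes Col3a1 the probe ranked 3 from the lowest. With the local background Col3a1 differed by -2.95 without zinc and -2.32 with zinc on the log2 scale. With the blank spots these differences were larger, at -3.45 and -3.60. The Col3a1 spot still read 226 and 224 with IPTG, above the limits of 67.6 and 71.8, so it counted as detected. The local background beside it was 103 and 108. On these 2 arrays 17.9% and 24.0% of spots carrying no probe also exceeded the limit.

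Type I collagen is a heterotrimer with 2 chains from Col1a1 (ENSRNOG00000003897) and 1 chain from Col1a2 (ENSRNOG00000011292). Col1a1 had a normalized signal of 3748 in untreated cells, 419 after IPTG, 3680 after zinc and 773 after both. Both arrays with IPTG lay far below both arrays without it, and the array with IPTG alone was the lowest. The fall was 8.94-fold without zinc and 4.76-fold with zinc. On the log2 scale the 2 pairs averaged -2.71 ± 0.27 (moderated SE), rank 15 from the lowest. With the local background Col1a1 differed by -2.73 without zinc and -1.77 with zinc, beside -3.16 and -2.25 with the blank spots. Col1a2 had a normalized signal of 6157 in untreated cells, 2496 after IPTG, 6345 after zinc and 2314 after both. Here too the arrays with IPTG lay below those without, over a narrower range. The fall was 2.47-fold without zinc and 2.74-fold with zinc. On the log2 scale the 2 pairs averaged -1.38 ± 0.18 (moderated SE), rank 113 from the lowest.

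The log2 difference of Col1a1 minus that of Col1a2 was thus -1.86 without zinc and -0.80 with zinc. These differences between the chains were not tested, since each pair gives a single value. The call for Col1a2 depended on how background was measured. With the local background around each spot in place of the blank spots, Col1a2 differed by -0.77 in the zinc-free pair and by -0.36 in the zinc pair on the log2 scale, and its limma adjusted p was 0.275. The local background beside the Col1a2 spot was 1234 in untreated cells and 3010 after zinc, but 274 after IPTG and 256 after both. It thus amounted to 52.7% of the spot intensity on the array with zinc and to 9.98% on the array with both. Across gene probes the log2 local background followed the log2 spot intensity on each array, at correlations of 0.94 to 0.95.

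Promoters of 3 of the 8 genes were found in RefSeq's table for GRCr8, by symbol, and these 3 are shown. Of them Col1a2 and Sparc passed the limma test as lower with IPTG, and Col5a2 did not. Each line gives the 250 bases before the annotated start, 5′ to 3′ on the gene's strand. Capitals mark the motifs that were found on either strand among CCAAT (the CCAAT box) and TATAAA (the TATA box) and TGANTCA (a consensus for AP-1, a transcription factor downstream of Ras) and GGGCGG (the GC box).
Col1a2, chr4:33518307-33518556, plus strand: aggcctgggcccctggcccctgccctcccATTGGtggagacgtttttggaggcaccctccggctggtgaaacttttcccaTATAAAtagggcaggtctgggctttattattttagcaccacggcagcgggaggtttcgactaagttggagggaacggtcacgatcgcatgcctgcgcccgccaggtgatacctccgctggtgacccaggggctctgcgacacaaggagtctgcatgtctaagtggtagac
Sparc, chr10:40038817-40039066, minus strand: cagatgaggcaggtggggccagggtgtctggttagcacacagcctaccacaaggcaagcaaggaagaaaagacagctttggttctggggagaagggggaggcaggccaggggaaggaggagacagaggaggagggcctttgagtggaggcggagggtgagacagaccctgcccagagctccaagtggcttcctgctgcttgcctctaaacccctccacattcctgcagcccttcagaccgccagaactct
Col5a2, chr9:55090152-55090401, minus strand: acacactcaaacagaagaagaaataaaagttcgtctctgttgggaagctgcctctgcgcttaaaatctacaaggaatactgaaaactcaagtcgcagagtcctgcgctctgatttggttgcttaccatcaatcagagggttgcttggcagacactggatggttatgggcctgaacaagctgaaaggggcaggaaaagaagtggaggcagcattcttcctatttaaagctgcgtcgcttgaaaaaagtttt
In the Col1a2 window the reverse of CCAAT begins at position -221 and TATAAA at position -170, counted from the annotated start. Whether transcription begins at the annotated starts was not tested. These positions, and the absences below, hold for the annotated windows only. Windows of this length hold CCAAT in 34.0% and TATAAA in 12.9% of the 33469 promoters in the table. TGANTCA, found in 6.34% of them, and GGGCGG, found in 30.5%, are not written in any of the 3 windows. The Sparc and Col5a2 windows hold none of the 4 motifs. The motifs do not overlap one another in these windows.

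Col5a2 (ENSRNOG00000003736) encodes a chain of type V collagen, a minor fibril component that helps to start fibrils and limits their diameter. Its normalized signal was 407 in untreated cells, 261 after IPTG, 413 after zinc and 227 after both. Both arrays with IPTG were lower than both without. The ratio was below 2-fold in each pair, with signals 1.56-fold lower in the zinc-free pair and 1.82-fold lower in the zinc pair. The average log2 difference of -0.75 ± 0.24 (moderated SE) did not pass the limma test (adjusted p = 0.079). With the local background its log2 differences were -0.86 and -1.27, at a limma adjusted p of 0.0589. In RefSeq's gene order Col3a1 and Col5a2 are direct neighbours, with 0 genes listed between them. The log2 IPTG difference of Col3a1 minus that of Col5a2 was -2.81 without zinc and -2.74 with zinc.

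Sparc (ENSRNOG00000012840), also called osteonectin, encodes a secreted glycoprotein that binds collagen and modulates how cells attach to the matrix. Its normalized signal was 307 in untreated cells, 139 after IPTG, 359 after zinc and 160 after both. The arrays with IPTG were again below those without. The fall was 2.21-fold without zinc and 2.25-fold with zinc. On the log2 scale the 2 pairs averaged -1.16 ± 0.23 (moderated SE), rank 213 from the lowest. With IPTG its spot read 150 and 183, at 2.28 and 2.63 times the blank mean, so the 50 units added to every signal compress its fold. The local background amounted to 80.0% of the spot intensity after IPTG and 51.2% after both. In untreated cells it was 50.3% and after zinc 38.8%. With 16 units in place of 50 the log2 differences were -1.38 and -1.37. With the local background they were -1.19 without zinc and -0.94 with zinc, which is under 2-fold in the second pair.

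Fn1 (ENSRNOG00000014288) encodes fibronectin, the adhesive glycoprotein that links integrins to collagen. Its normalized signal was 2859 in untreated cells, 2732 after IPTG, 3840 after zinc and 2194 after both. The array with zinc was the highest and the array with both the lowest, while the pair without zinc nearly coincided. On the log2 scale Fn1 differed by -0.07 in the zinc-free pair and by -0.81 in the zinc pair. The average of -0.44 ± 0.23 (moderated SE) did not pass the limma test (adjusted p = 0.284). Local background reversed the order of the 2 pairs, at -0.45 without zinc and -0.10 with zinc. In the authors' deposited table Fn1 had a normalized intensity of 1261 in untreated cells, 1697 after IPTG, 1433 after zinc and 1102 after both. In that table the median probe was itself higher with IPTG by 0.34 on the log2 scale without zinc and by 0.29 with zinc. Relative to that median, Fn1 stood at 0.09 without zinc and -0.67 with zinc.

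Lox (ENSRNOG00000014426) encodes lysyl oxidase, the copper enzyme that starts the cross-linking of collagen and elastin. RefSeq lists Rrg1 among its synonyms, a name from its description in mouse fibroblasts as a gene that is lost on transformation by ras and returns in revertants. Its normalized signal was 828 in untreated cells, 937 after IPTG, 1008 after zinc and 717 after both. The arrays with IPTG were the second highest and the lowest, so the groups overlapped. On the log2 scale Lox differed by 0.18 in the zinc-free pair and by -0.49 in the zinc pair. The average for Lox was -0.16 ± 0.26 (moderated SE), at a limma adjusted p of 0.769. Its sign was not fixed, since the average became 0.27 with the local background, 0.01 with median scaling of the arrays and 0.19 in the authors' deposited table.

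Dcn (ENSRNOG00000004554) encodes decorin, a small leucine-rich proteoglycan that binds collagen fibrils. Its spot read 64.9 in untreated cells, 64.2 after IPTG and 65.1 after zinc, each below the detection limit of that array. With both additions it read 72.3, just above the limit of 71.8 on the array where blank spots were brightest. The local background beside that spot was 70.3. Dcn therefore has only an upper bound on 3 arrays and no fold is given. Whether this line lacks decorin mRNA or the probe reports it poorly was not tested.

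The 2 genes with the largest differences kept their places across the ways of processing, and the order of the others did not. The average log2 IPTG difference was lowest for Col3a1 and next lowest for Col1a1 under each of the 7 ways of processing the arrays. Col1a2, Sparc and Col5a2 followed in that order at -1.38, -1.16 and -0.75, but with the local background they stood at -0.57, -1.06 and -1.07. Local background gave the values closest to 0 for Col1a1, Col1a2 and Col3a1. In the authors' deposited table Col1a2 reached -0.91 without zinc. Relative to the median probe of that table Col1a2 stood at -1.25. For the gene probes within 2 columns and 2 rows of each spot, the median log2 IPTG difference lay between -0.04 and 0.07 for the 7 genes entered.

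**Figure D3:**
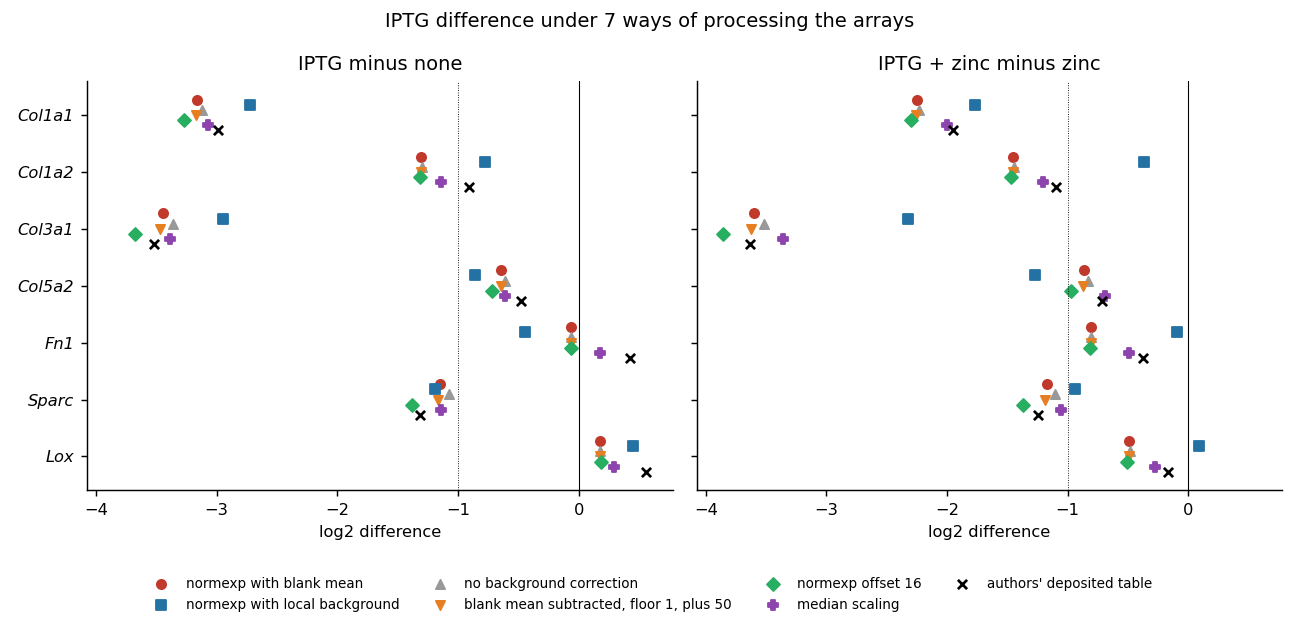
Log2 difference with IPTG for the 7 genes entered, without zinc (left) and with zinc (right), under 7 ways of correcting background and scaling arrays; each symbol is 1 way and the dotted line marks 2-fold lower. Col3a1 and Col1a1 lie left of the line throughout. Col1a2 falls short of it with local background in both panels and with the authors' table on the left. Sparc falls short of it with local background on the right, and Col5a2 passes it there with local background only. On the left Fn1 falls on both sides of 0 while Lox lies above 0.

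Zinc alone was followed by small differences in this set when background was taken from the blank spots. Without IPTG the log2 zinc difference was 0.43 for Fn1, 0.28 for Lox, 0.23 for Sparc, and between -0.03 and 0.04 for Col1a1, Col1a2, Col3a1 and Col5a2. Each lay within the range that held the central 95% of probes of like brightness, which for Fn1 ran from -0.41 to 0.54. Among probes of any brightness, 1.37% were at least as high as Fn1, 3.64% as Lox and 5.49% as Sparc. With the local background these differences were -0.76 for Col3a1, -0.56 for Col1a2, -0.18 for Col1a1, 0.22 for Col5a2, 0.11 for Fn1, -0.12 for Lox and 0.47 for Sparc. None of the 7 genes entered was at least 2-fold apart, a limit passed by 0.0659% of 13667 probes upward and 0.0146% downward. With IPTG present, the zinc difference was 0.88 for Col1a1, 0.20 for Sparc, -0.39 for Lox, -0.32 for Fn1, -0.21 for Col5a2, -0.12 for Col3a1 and -0.11 for Col1a2. Again none was 2-fold apart, against 1.64% of probes higher and 0.937% lower. Over both pairs limma called 0 of 13667 probes for zinc, 466 had an unadjusted p under 0.05, and the prior that ignores brightness also called 0.

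Col1a1 had the widest zinc difference of the set in cells with IPTG. Its spot intensity was 448 with IPTG alone and 851 with both, a ratio of 1.84 after normalization. A difference at least as high was found for 2.29% of all probes, and for probes of like brightness the central 95% reached from -0.86 to 1.06. The local background beside the spot moved along, at 84.1 with IPTG and 170 with both. In the authors' deposited table the normalized intensity of Col1a1 was 216 after IPTG and 360 after both, beside 1714 in untreated cells and 1391 after zinc. With both additions, its signal thus remained below that of either array without IPTG. The same ratio between the 2 arrays with IPTG was 0.92 for Col3a1 and 0.93 for Col1a2.

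**Figure D4:**
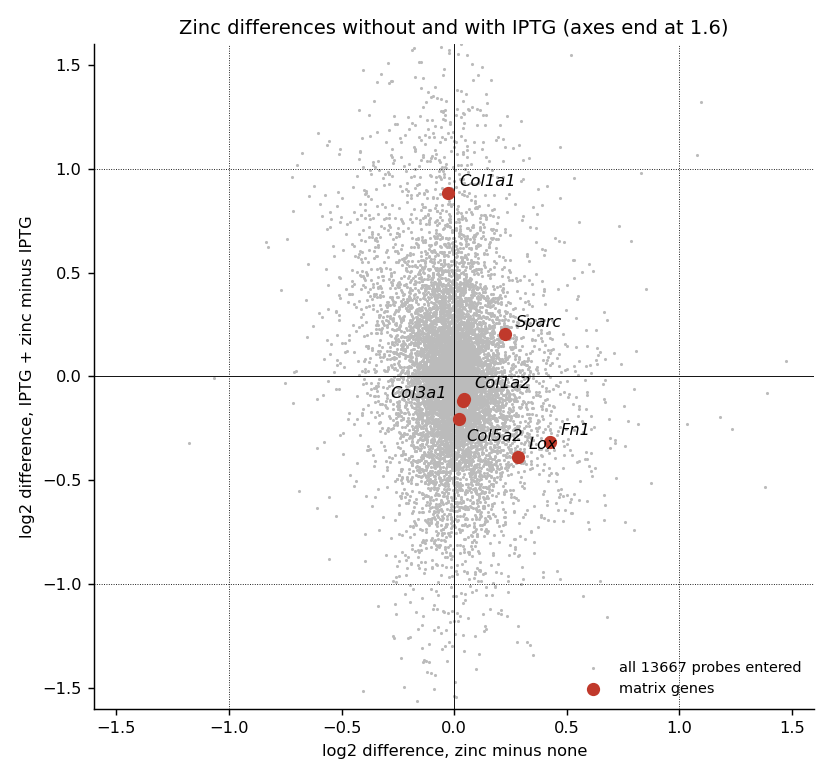
Log2 difference with zinc in cells without IPTG (horizontal) and with IPTG (vertical), with 13667 probes in grey and 7 matrix genes in red; dotted lines mark 2-fold, and 67 probes lie beyond the axes. All 7 genes lie inside the 2-fold lines, with Col1a1 nearest to the upper one.

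The change in the IPTG difference that went with zinc (zinc pair minus zinc-free pair) was 0.91 for Col1a1, -0.74 for Fn1, -0.67 for Lox, -0.23 for Col5a2, -0.16 for Col3a1, -0.15 for Col1a2 and -0.02 for Sparc, on the log2 scale. At this measure 2.36% of 14254 probes were at least 2-fold above 0 and 1.48% at least 2-fold below, and none of these genes passed the limit. With 4 arrays this quantity could not be tested for a single gene. For Col1a1 it ranged from 0.89 to 1.07 over the alternatives, passing 2-fold with median scaling (1.07) and in the authors' deposited table (1.04). It turned to 0.35 for Fn1, 0.63 for Col3a1, 0.41 for Col1a2 and 0.25 for Sparc with the local background. Median scaling also put Col3a1 (0.03) and Sparc (0.09) above 0, and the authors' deposited table did so for Sparc (0.07). The array with both additions enters each of these values, and its part in them was not tested.

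The profile of Col1a1 over the 4 arrays was compared with the profiles of 12781 probes detected on all of them, each centred on its own mean, by Euclidean distance on the log2 scale. The closest probe outside the set was ENSRNOG00000012216 at a distance of 0.26, followed by ENSRNOG00000021812 at 0.28. Neither could be named here. Within the set Col3a1 was closest at 1.08, with 45 probes from outside the set nearer to Col1a1; for Col1a2 there were 134. These distances rest on 4 arrays.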

How the data were processed

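The scanner files deposited for the 4 arrays give, per the file headers, the median intensity of each of 27456 spots and of the local background around it, read at 3 gains related by least squares, with a quality mark at each gain. Per the labels' protocols, amplified RNA was coupled to Cy5 for a Toray array. A normalized intensity is listed in the authors' deposited table; the labels do not describe its scaling. Scanner software is not given in the sources used here.

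From the deposited intensities, limma's normexp (offset 50) corrected the background, using each array's blank-spot mean (1344 spots, 5 percent left out at each end) as the background of every spot, since the local background rose with spot signal. Control spots and 8 probes marked as poor were left out, leaving 20166, and log2 values were quantile normalized. For each factor, probes above the limit on both arrays with it or both without it entered the additive limma fits (intensity trend, two-sided, Benjamini-Hochberg threshold 0.05). The IPTG fit was also run on simulated data with normal noise, where only the mean size of the estimated effects had to match. That run is no check of the calls in these data. Calls at 2-fold carry no p-value. Alternatives changed the background, offset, scaling, filter, prior and fold limit.

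The members, the settings and the rule for named genes (all 8 members, and the probes most like Col1a1) were chosen with earlier results of these data known. Lists of other matrix, receptor and marker genes were fixed by symbol but not analysed here, because 0 of their symbols could be matched to the identifiers, so the fibroblast label was not checked against markers. Precision is limited by the number of arrays. Tools were R 4.3.3, limma 3.58.1, Python 3.11.15 and matplotlib 3.10.9.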

Additional observations from a re-analysis of the deposited data

Results flagged for a closer look

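With the blank spots as background, some differences took opposite signs without and with the other addition, and none of these contrasts was tested. For IPTG this was Lox, whose difference with zinc minus that without zinc was -0.67 on the log2 scale; with the local background both of its IPTG differences were above 0, at 0.45 and 0.09. For zinc, the difference with IPTG minus that without IPTG was 0.91 for Col1a1, which was nearly level without IPTG and higher with it. It was -0.74 for Fn1 and -0.67 for Lox, both higher with zinc alone and lower with zinc in the presence of IPTG. Neither kept opposite signs with the local background, at 0.11 without and 0.46 with IPTG for Fn1 and at -0.12 and -0.48 for Lox. This contrast was -0.15 for Col1a2, -0.16 for Col3a1 and -0.23 for Col5a2, each of which lay within 0.05 of 0 without IPTG. These 3 stood at -0.56, -0.76 and 0.22 without IPTG when the local background was used, and in the authors' table at -0.23, -0.23 and -0.21, where the median probe was at -0.20. No group had enough arrays to look for one that stood apart within its group.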

How the results depend on the processing

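No paired analysis was possible because the labels carry no replicate numbers, other than the additive fit itself, which compares arrays within each zinc level. Either pair of arrays taken alone gave 4 members at least 2-fold lower with IPTG. A gene lower in both pairs is lower in each, so this count could not be below 4 and is no check. Subtracting the median of neighbouring probes also left 4 members lower in both pairs. All of these settings were chosen after seeing the data. Local background reduced the 4 members lower in both pairs to 2. A fold limit of 3 also left 2 members, in both pairs and in each pair. A limit of 1.5 gave 1 member higher with zinc in cells with IPTG, and for the difference of effects 2 members below and 1 above. At the 2-fold limit, 1 member was above for the difference of effects in the authors' table and with median scaling. For these zinc and difference-of-effects counts, the share of all probes under the same setting was not counted. With the constant prior limma left 0 members and 0 probes past its test. Average log2 IPTG differences changed sign for Fn1 in the authors' table (0.025) and for Lox with local background (0.27), median scaling (0.0081) and the authors' table (0.19). Average zinc differences changed sign for Col5a2 with local background (0.018) and for Fn1 with median scaling (-0.020) and the authors' table (-0.22). Of all probes, 186 were lower and 186 higher with IPTG in both pairs; offset 16 gave 320 and 284, the authors' table gave 353 and 925, a limit of 1.5 gave 579 and 536, and a limit of 3 gave 48 and 57. The limma test called 815 lower and 697 higher, against 320 lower in the authors' table and 401 higher with local background. The cause of these shifts was not tested, except that fold limits change counts by construction. The lists of other matrix genes were not run, because their symbols could not be matched.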
